A study of Homo sapiens with 12 samples.

Results

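The genes described here handle the storage, transport and sensing of iron. They are the ferritin subunits FTH1 and FTL, the iron exporter SLC40A1, the plasma carrier TF and its receptor TFRC, the ferritin cargo receptor NCOA4, and the iron regulatory proteins ACO1 and IREB2. They were taken from the expression table by gene symbol and are 8 of its 16705 genes. RNA was sequenced from human liver spheroids, in which C3A cells, a clone selected from the hepatoma line HepG2 for hepatocyte functions, were co-cultured with LX-2 cells, an immortalized line of hepatic stellate cells. Spheroids were left untreated or exposed from day 3 of culture to 1% total parenteral nutrition (TPN), a clinical infusion that supplies lipids, glucose, amino acids and electrolytes together with vitamins and trace elements. RNA was taken after 24 h (day 4) or 144 h (day 9), and each of the 4 groups had 3 libraries, each from many pooled spheroids. All groups shared the same medium with serum, and neither line is a primary liver cell. The trace element additive of TPN contains iron, so the comparison asks how the mRNAs of the iron system differed between spheroids with and without this mixture.

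Iron that enters a hepatocyte on transferrin, by way of the transferrin receptor, is released from transferrin in endosomes. It is then used or stored in ferritin, a shell of H subunits (FTH1), which oxidize iron, and L subunits (FTL), which help it to mineralize. Ferroportin (SLC40A1) is the known exporter of iron from cells, and NCOA4 delivers ferritin to lysosomes, where its iron is recovered. The iron regulatory proteins IRP1 (ACO1, a cytosolic aconitase when it carries an iron-sulfur cluster) and IRP2 (IREB2) bind a hairpin called the iron responsive element. Bound in a 5′ UTR the hairpin blocks translation, and in the 3′ UTR of TFRC it protects the mRNA from decay. The liver makes most of the transferrin of plasma.

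The hairpins are shown because they are the sequence on which storage, export and uptake mRNAs differ. The transcripts marked as canonical in GENCODE v44 on GRCh38 were searched on their own strand for a C, 5 bases, the loop CAGTGN and 5 bases that pair with the first 5, with G to T pairs allowed. Each sequence begins with the 5 bases before that C and runs 5′ to 3′, and capitals mark the loop. The match in the 5′ UTR of FTL lies on the plus strand at chr19:48965336-48965362, and that in the 5′ UTR of SLC40A1 lies on the minus strand at chr2:189580662-189580688.
FTL: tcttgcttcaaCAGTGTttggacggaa
SLC40A1: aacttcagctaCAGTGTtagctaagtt
The 3′ UTR of TFRC held 4 matches on the minus strand, in the order of the transcript at chr3:196050980-196051006, chr3:196050576-196050602, chr3:196050511-196050537 and chr3:196050464-196050490.
TFRC 1: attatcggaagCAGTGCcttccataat
TFRC 2: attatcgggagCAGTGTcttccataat
TFRC 3: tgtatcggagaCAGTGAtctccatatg
TFRC 4: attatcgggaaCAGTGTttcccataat
Of all transcripts searched, 0.0988% had such a match in the 5′ UTR (19 of 19224) and 0.629% in the 3′ UTR (121 of 19229). TF held 1 match of letters, 16199 bases from the start of its transcript in a long 3′ UTR, and NCOA4, ACO1 and IREB2 held none in these windows. Matches in FTH1 were not recorded on their own, so none is shown for it, and this does not mean that it held none.

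Values are in FPKM, a count of fragments scaled to transcript length and to the fragments of the library, so levels of different genes can be set side by side. FPKM summed to between 561657 and 583722 in a library, and between 10936 and 11074 genes reached 1 FPKM. The number of fragments is not given in the sources used here. In 53 genes whose low values moved in whole steps (within 10%) the value of a step was 0.984 to 1 times that of the other libraries. These genes were picked for steps shared by the libraries within 10%, so this cannot show whether depth differed. Expression was compared as log2(FPKM + 0.1) with limma, in 1 model of the 4 groups over the 11713 genes with a mean of at least 0.5 FPKM, and all 8 iron genes were in this set. A gene rose or fell when its Benjamini-Hochberg adjusted p over all genes tested was below 0.05, and it was a differentially expressed gene (DEG) when its log2 fold change also exceeded 0.58 in size. The 8 markers of hepatocytes examined had at least 1 FPKM in every group, and 7 of the 8 markers of stellate cells did so in untreated spheroids at 24 h, but at 144 h 3 did so without and 2 with exposure. The summed level of the stellate markers lay between 82.9 and 85.4 FPKM in untreated and between 71.6 and 73.9 in exposed spheroids at 24 h, and between 52 and 56.5 and between 47.8 and 50.4 at 144 h. Most of this sum was ACTA2, at 57.8 FPKM in untreated spheroids at 24 h and 47.9 at 144 h. Of 7 stellate markers tested, 6 fell between these groups and none rose, against 52.4% and 20.1% of all genes tested. Their median log2 fold change was -2.11, and COL1A1 fell from 15.1 to 1.92 FPKM. The part of this in the changes of the iron genes with time was not tested.

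In spheroids exposed to TPN the mRNAs of both ferritin subunits and of ferroportin rose, and those of transferrin and NCOA4 fell, at both times. At 24 h, 3 of the 8 genes rose (FTH1, FTL and SLC40A1) and 2 fell (TF and NCOA4). Of all genes tested, 5.04% rose and 5.46% fell. None of the 8 was a DEG, a class that held 0.914% of the genes tested, while by unadjusted p 5 of them were below 0.05 in limma. At 144 h, 4 rose (the same 3 genes and TFRC) and 3 fell (TF, NCOA4 and IREB2), against 24.2% and 28.3% of all genes tested. FTH1, FTL, SLC40A1 and TF were DEGs at 144 h, 4 of 8 against 9.48% of all genes tested. The libraries of untreated and exposed spheroids did not overlap for 5 of the 8 genes at 24 h, against 29.9% of all genes tested, and for 7 at 144 h, against 57.3%.

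**Figure D1:**
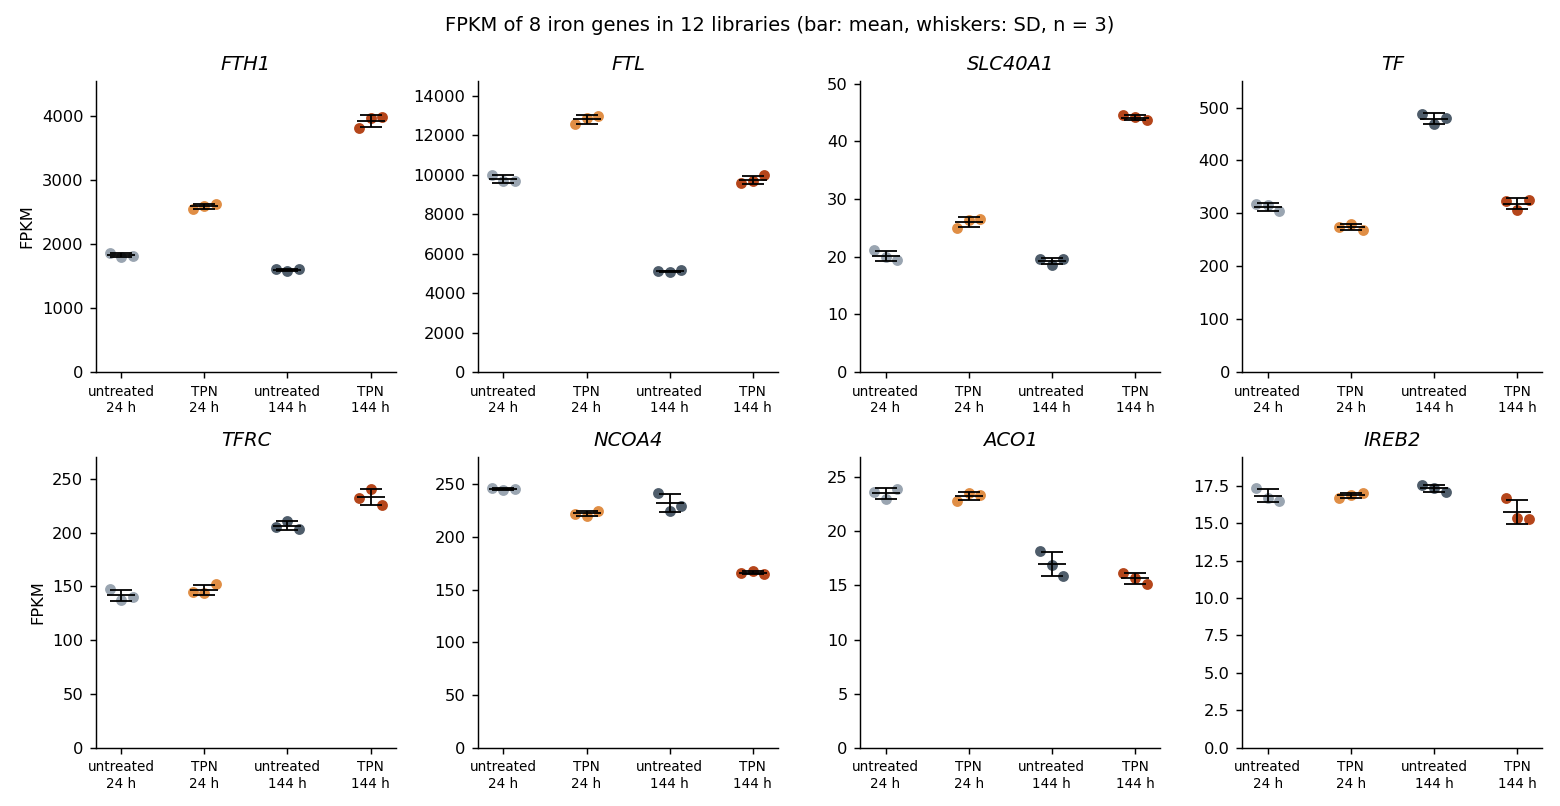
FPKM of the 8 iron genes (y axes, each from 0) in the 12 libraries by group (x axes). Points are libraries, bars are means and whiskers are the SD of 3 libraries. FTH1 and SLC40A1 are highest in exposed spheroids at 144 h, at means of 3924 and 44.1 FPKM, FTL is highest in exposed spheroids at 24 h, at 12792 FPKM, and TF is highest in untreated spheroids at 144 h, at 479 FPKM.

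The ferritin heavy chain gene FTH1 (NCBI gene 2495) lies on chromosome 11 from 61964285 to 61967634 in GRCh38. It had 1867, 1806 and 1808 FPKM in the untreated libraries at 24 h and 2549, 2602 and 2621 FPKM after 24 h of TPN. At 144 h it had 1605, 1586 and 1615 FPKM in untreated and 3816, 3971 and 3984 FPKM in exposed spheroids. Every exposed library was above every untreated library at each time, and the highest 3 values of all were the exposed ones at 144 h. The means rose from 1827 ± 34.7 to 2591 ± 37.3 FPKM at 24 h (SD, n = 3), a 1.42-fold difference with a log2 fold change of 0.50 (SE 0.027, limma adjusted p = 2.9e-08). At 144 h they rose from 1602 ± 14.8 to 3924 ± 93.6 FPKM, a 2.45-fold difference with a log2 fold change of 1.29 (SE 0.027, limma adjusted p = 6.06e-13). FTH1 took 0.280% of the summed FPKM of untreated spheroids at 144 h and 0.680% of that of exposed spheroids.

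The ferritin light chain gene FTL (NCBI gene 2512, chromosome 19, 48965309 to 48966879) was the most abundant gene of the table in 9 of the 12 libraries. It had 9998, 9658 and 9661 FPKM in untreated spheroids at 24 h and 12561, 12841 and 12974 FPKM after 24 h of TPN. At 144 h it had 5109, 5089.7 and 5145 FPKM in untreated spheroids, where EEF1A1 was the most abundant gene, and 9557, 9675 and 9958 FPKM in exposed spheroids. Exposed libraries were above untreated ones at each time, but those exposed for 144 h lay in or near the range of the untreated libraries at 24 h. The difference was 1.31-fold at 24 h (9772 ± 196 against 12792 ± 211 FPKM, log2 fold change 0.39, SE 0.028, limma adjusted p = 1.03e-06). At 144 h it was 1.90-fold (5114 ± 27.9 against 9730.2 ± 206 FPKM, log2 fold change 0.93, SE 0.028, limma adjusted p = 2.37e-11). RefSeq lists 20 pseudogenes of FTL and 27 of FTH1, and none of them is in the expression table. Reads shared with these copies cannot be told apart from those of the parent genes in summed values, so the levels of both are uncertain to that extent.

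Ferroportin, SLC40A1 (NCBI gene 30061, chromosome 2, 189560590 to 189583758), was expressed at a far lower level, at 21.1, 19.9 and 19.5 FPKM in untreated and 24.9, 26.4 and 26.6 FPKM in exposed spheroids at 24 h. At 144 h the untreated libraries had 19.6, 18.6 and 19.6 FPKM and the exposed libraries 44.5, 44.1 and 43.6 FPKM. The exposed libraries at 144 h stood apart from all others, while the untreated libraries of both times overlapped. The log2 fold change was 0.36 at 24 h (1.29-fold, SE 0.039, limma adjusted p = 4.45e-05) and 1.19 at 144 h (2.29-fold, SE 0.039, limma adjusted p = 5.22e-11). FTL and SLC40A1, each with a match in the 5′ UTR above, rose at both times, as did FTH1. Whether the hairpin had a part in this was not tested, and the protein and iron of these spheroids were not analysed here.

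Transferrin, TF (NCBI gene 7018, chromosome 3, 133661895 to 133796641), went the other way. It had 317, 317 and 304 FPKM in untreated and 274, 279 and 268 FPKM in exposed spheroids at 24 h, and 488, 469 and 481 FPKM in untreated against 323, 306 and 325 FPKM in exposed spheroids at 144 h. Untreated spheroids at 144 h were the high group, and the exposed spheroids of the same time overlapped the untreated spheroids of 24 h. TF was 12.4% lower at 24 h (log2 fold change -0.19, SE 0.031, limma adjusted p = 0.00122) and 33.7% lower at 144 h (log2 fold change -0.59, SE 0.031, limma adjusted p = 3.57e-09). Its DEG call at 144 h lies close to the threshold of 0.58 and was kept in 21 of 23 alternative settings, with log2 fold changes from -0.61 to -0.56. Markers of hepatocytes moved with it. Of the 8 markers, 4 passed the test at 24 h, all lower, and 7 at 144 h, 6 of them lower, with ALB, the serum albumin gene, at 0.639 times its untreated level (limma log2 fold change -0.65, adjusted p = 4.69e-08). Their summed level was 11870 to 12226 FPKM in untreated and 10919 to 10948 FPKM in exposed spheroids at 24 h, and 13043 to 14029 and 10350 to 11068 FPKM at 144 h. Most of the difference in this sum at 144 h was ALB, at 6044 FPKM in untreated and 3863 FPKM in exposed spheroids. The part of these marker changes in the result for TF was not tested, and in bulk RNA fewer cells of a type and less RNA per cell cannot be told apart.

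The transferrin receptor, TFRC (NCBI gene 7037, chromosome 3), had 147, 137 and 140 FPKM in untreated and 145, 143 and 152 FPKM in exposed spheroids at 24 h. The groups overlapped, and the log2 difference of 0.053 did not pass the test (95% interval -0.022 to 0.13, limma adjusted p = 0.392). At 144 h the values were 205, 211 and 204 FPKM in untreated and 232, 241 and 225 FPKM in exposed spheroids, without overlap. The rise at 144 h was 1.13-fold (206 ± 3.95 against 233 ± 7.64 FPKM, log2 fold change 0.17, SE 0.035, limma adjusted p = 9.11e-04). TFRC is the gene whose 4 matches to the hairpin pattern are printed above. Hairpins that depart from the searched pattern would have been missed. The expression table gives TFRC an interval on chromosome 3 from 196018476 to 196082123 with 29 transcripts, of which 6 are RefSeq mRNAs. RefSeq places the gene from 196049284 to 196082090, so its values may include RNA from outside the gene. The same holds for SLC40A1, whose interval ends at 189583758 against 189580786 in RefSeq. Those of TF and NCOA4 begin at 133661895 and 46004763, against 133661998 and 46005088 in RefSeq.

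NCOA4 (NCBI gene 8031, chromosome 10, 46004763 to 46030623), the receptor that carries ferritin to autophagosomes, had 247, 244 and 246 FPKM in untreated spheroids at 24 h and 222, 220.0 and 225 FPKM in exposed ones. At 144 h it had 241, 225 and 230 FPKM in untreated and 166, 168 and 165 FPKM in exposed spheroids. The exposed libraries were below the untreated ones at each time and lowest at 144 h. NCOA4 was 9.52% lower at 24 h (log2 fold change -0.14, SE 0.027, limma adjusted p = 0.00367) and 28.4% lower at 144 h (log2 fold change -0.48, SE 0.027, limma adjusted p = 8.61e-09), which did not reach the threshold of a DEG.

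The mRNAs of the iron regulatory proteins differed least. They are ACO1 (NCBI gene 48, chromosome 9, 32384643 to 32454769) and IREB2 (NCBI gene 3658, chromosome 15, 78437431 to 78501453). ACO1 had 23.6, 22.9 and 23.9 FPKM in untreated and 22.8, 23.5 and 23.4 FPKM in exposed spheroids at 24 h, and 18.2, 16.9 and 15.9 FPKM against 16.2, 15.6 and 15.2 FPKM at 144 h. The groups overlapped at both times. The log2 difference was -0.016 at 24 h (95% interval -0.12 to 0.084, limma adjusted p = 0.882) and -0.11 at 144 h (95% interval -0.21 to -0.014, limma adjusted p = 0.0545). IREB2 had 17.4, 16.7 and 16.5 FPKM in untreated and 16.7, 16.9 and 17.0 FPKM in exposed spheroids at 24 h, a log2 difference of 0.0012 (95% interval -0.086 to 0.089, limma adjusted p = 0.989). At 144 h it had 17.5, 17.3 and 17.1 FPKM in untreated and 16.7, 15.3 and 15.3 FPKM in exposed spheroids. This was 8.96% lower (log2 fold change -0.14, SE 0.041, limma adjusted p = 0.0124), and 1 of the 3 exposed libraries lay close to the untreated range. The call of IREB2 at 144 h was lost without exposed replicate 2 (-0.12) or replicate 3 (-0.11), and ACO1 passed the test without exposed replicate 1 (-0.14) or untreated replicate 3 (-0.16).

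**Figure D2:**
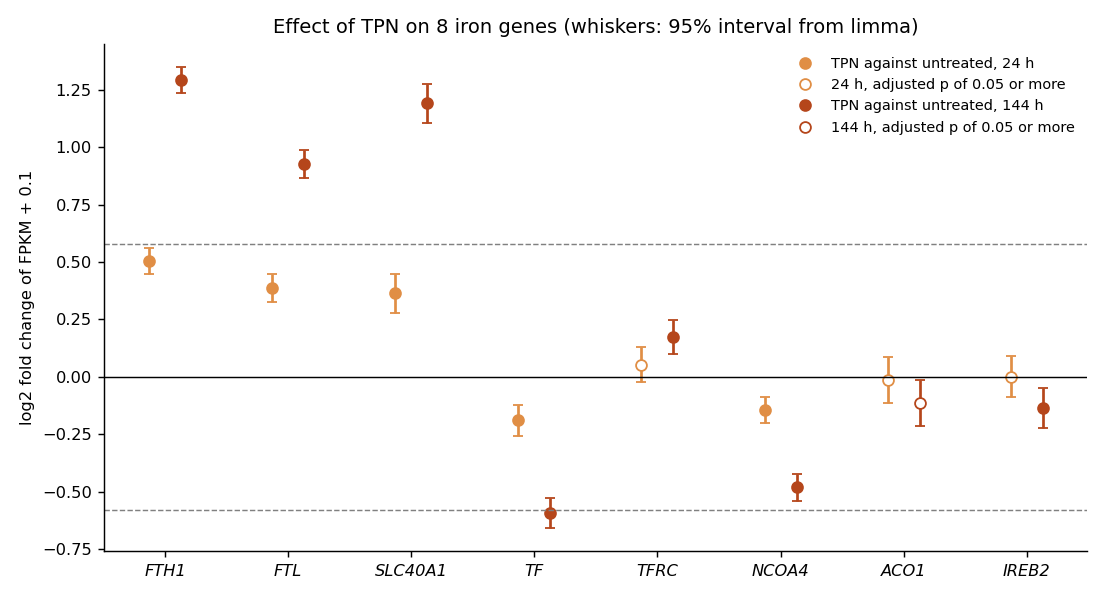
Log2 fold change of FPKM + 0.1 of exposed over untreated spheroids (y axis) for the 8 genes (x axis) at 24 h and 144 h, with 95% intervals from limma as whiskers, open points for an adjusted p of 0.05 or more and dashed lines at the DEG threshold of 0.58. FTH1, FTL and SLC40A1 are above 0 at both times, at 1.29, 0.93 and 1.19 at 144 h, TF and NCOA4 are below 0, at -0.59 and -0.48, and TFRC, ACO1 and IREB2 are at 0.17, -0.11 and -0.14.

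The effect of exposure was larger at 144 h than at 24 h for the genes that moved at both times. As a difference of log2 fold changes between the times, FTH1 had 0.79 (SE 0.038, limma adjusted p = 2.3e-08), FTL 0.54 (SE 0.040, limma adjusted p = 1.12e-06) and SLC40A1 0.83 (SE 0.056, limma adjusted p = 4.73e-07). TF had -0.40 (SE 0.043, limma adjusted p = 2.01e-05) and NCOA4 -0.34 (SE 0.038, limma adjusted p = 3.17e-05). So 3 of 8 genes had a higher and 2 a lower effect at 144 h, against 14.1% and 16.3% of all genes tested. For TFRC (0.12, 95% interval 0.014 to 0.23, limma adjusted p = 0.0821), ACO1 (-0.098, 95% interval -0.24 to 0.044, limma adjusted p = 0.287) and IREB2 (-0.14, 95% interval -0.26 to -0.013, limma adjusted p = 0.0885) the difference did not pass the test, although that of TFRC did without exposed replicate 3 of 24 h (0.14) and that of IREB2 without exposed replicate 1 of 144 h (-0.18).

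The subunits of ferritin did not rise in equal measure. Within a library the ratio of FTL to FTH1 was 5.35, 5.35 and 5.34 in untreated and 4.93, 4.93 and 4.95 in exposed spheroids at 24 h. At 144 h it was 3.18, 3.21 and 3.19 in untreated and 2.50, 2.44 and 2.50 in exposed spheroids. Exposed libraries had the lower ratio at each time, and the step from 24 h to 144 h in untreated spheroids was larger than either exposure effect. The log2 ratio differed by -0.12 (SE 0.0021) at 24 h and by -0.36 (SE 0.013) at 144 h, and by -0.74 (SE 0.0039) between untreated spheroids at 144 h and at 24 h. The ratio of TFRC to FTH1, uptake against storage, was 0.0789, 0.0758 and 0.0776 in untreated and 0.0569, 0.0551 and 0.0579 in exposed spheroids at 24 h, and 0.128, 0.133 and 0.126 against 0.0609, 0.0606 and 0.0566 at 144 h. It was lower in every exposed library, with log2 differences of -0.45 (SE 0.027) at 24 h and -1.12 (SE 0.042) at 144 h. TFRC itself did not fall with exposure, at log2 fold changes of 0.053 and 0.17. The lower ratio therefore restates the rise of FTH1 and is no separate result on uptake. In untreated spheroids the ratio of TFRC to FTH1 was 0.74 higher (SE 0.029) on the log2 scale at 144 h than at 24 h. A ratio within a library does not depend on how libraries are scaled to each other. Each of these 6 comparisons had p = 0.1 in a two-sided exact permutation test of 3 against 3 libraries, also after adjustment over the 6, which is the smallest p that this design allows.

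**Figure D3:**
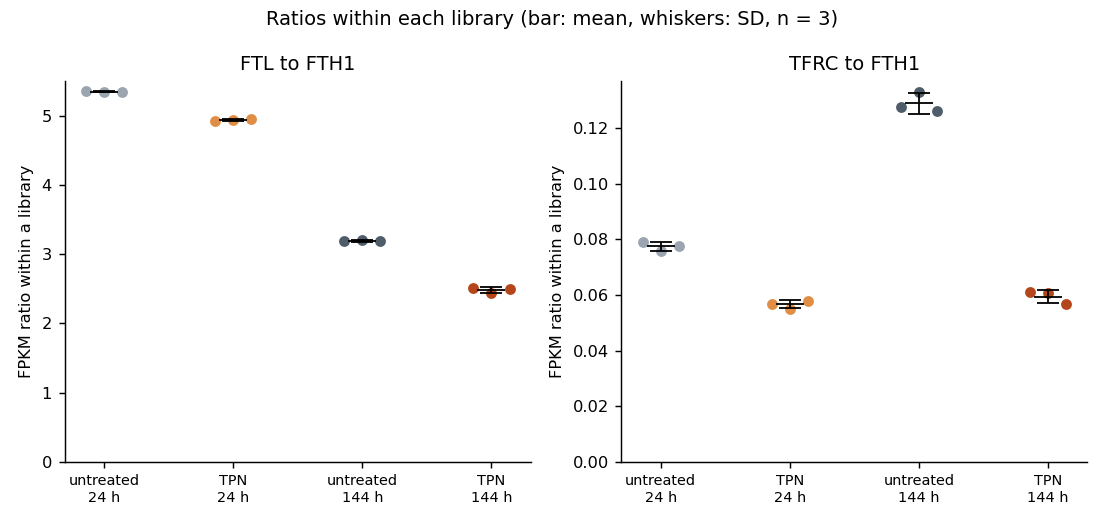
Ratio of FPKM within each library (y axes, from 0) of FTL to FTH1 on the left and of TFRC to FTH1 on the right, by group (x axes), with libraries as points, means as bars and the SD of 3 libraries as whiskers. The FTL to FTH1 ratio falls from a mean of 5.35 in untreated spheroids at 24 h to 2.48 in exposed spheroids at 144 h, and the TFRC to FTH1 ratio is highest in untreated spheroids at 144 h, at 0.129.

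Iron genes also differed with time in culture. The untreated groups of this comparison are the same libraries as above. The median gene tested was 0.18 lower on the log2 scale at 144 h than at 24 h, in untreated as in exposed spheroids, and scaling by median ratios brought these medians to -0.012 and -0.0071, so values are given beside that shift. In the deposited values of the untreated spheroids 2 of the 8 genes rose and 4 fell, against 20.1% and 52.4% of all genes tested. FTL and TF were DEGs, against 19.0%. The counts of rises and falls depend on the scaling, as given by gene below. The groups did not overlap for 6 of the 8, against 74.9% of all genes tested. By share, 27.8% of all calls were rises, and 48.9% were after scaling by median ratios. FTL had 47.7% lower FPKM at 144 h (limma log2 fold change -0.93, adjusted p = 9.48e-12, or -0.75 relative to the median gene). FTH1 differed by -0.19 (limma adjusted p = 2.15e-05), which was -0.0060 relative to the median gene and did not pass the test after scaling by median ratios (adjusted p = 0.645). TF was 1.53-fold higher (limma log2 fold change 0.62, adjusted p = 7.98e-10) and TFRC 1.46-fold higher (0.55, limma adjusted p = 9.15e-09), and both stayed higher relative to the median gene, by 0.80 and 0.73. ACO1 was 27.8% lower (limma log2 fold change -0.47, adjusted p = 7.09e-07, or -0.29 relative to the median gene). NCOA4 differed by -0.082 (limma adjusted p = 0.0142), but by 0.091 after scaling by median ratios (limma adjusted p = 0.00789). It passed the test in opposite directions, so its direction depends on the scaling. Its call in the deposited values was lost without untreated replicate 2 of 144 h (-0.060). SLC40A1 (-0.066, limma adjusted p = 0.147, or 0.11 after scaling by median ratios) and IREB2 (0.041, limma adjusted p = 0.383, or 0.21 after that scaling) did not pass the test in the deposited values, but did after that scaling (limma adjusted p = 0.0269 and 3.11e-04).

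In exposed spheroids the same interval gave another picture for storage and export. Of the 8 genes, 4 were higher at 144 h than at 24 h and 4 lower, against 24.2% and 52.0% of all genes tested. FTH1, SLC40A1 and TFRC were DEGs, against 26.7%, and the groups did not overlap for 7 of the 8, against 77.9%. FTH1 was 1.51-fold (limma log2 fold change 0.60, adjusted p = 1.58e-10) and SLC40A1 1.70-fold higher (0.76, limma adjusted p = 6.38e-10), or by 0.78 and 0.95 on the log2 scale relative to the median gene. FTL was 23.9% lower (-0.39, limma adjusted p = 1.88e-08, or -0.21 relative to the median gene). TF (limma log2 fold change 0.21, adjusted p = 1.98e-05, or 0.40 relative to the median gene) and TFRC (0.67, limma adjusted p = 7e-10, or 0.85) were higher, as in untreated spheroids. NCOA4 (-0.42, limma adjusted p = 6.17e-09, or -0.23 relative to the median gene) and ACO1 (-0.57, limma adjusted p = 7.24e-08, or -0.38) were lower. IREB2 differed by -0.096 (limma adjusted p = 0.0444), but by 0.083 after scaling by median ratios, so its direction also depends on the scaling, and the call was lost in 9 of the 12 settings that left out 1 library.

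Within a group the order of the genes was largely fixed. FTL was highest and FTH1 next in each of the 4 groups, followed by TF, and SLC40A1, ACO1 and IREB2 were the lowest 3. NCOA4 was above TFRC in all groups but the exposed spheroids at 144 h, where TFRC had 233 ± 7.64 and NCOA4 166 ± 1.35 FPKM. ACO1 was above SLC40A1 in untreated spheroids at 24 h, at 23.5 ± 0.504 against 20.2 ± 0.858 FPKM, and below it in the other groups. Neighbours in this order did not overlap between libraries, apart from IREB2 and ACO1 at 144 h, with 17.3 ± 0.220 and 17.0 ± 1.15 FPKM in untreated and 15.8 ± 0.803 and 15.7 ± 0.515 FPKM in exposed spheroids.

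Other iron genes were described by 6 lists with 69 genes, of which 66 were in the expression table and 58 were tested. At 24 h 6 of the 58 rose and 5 fell, against 5.04% and 5.46% of all genes tested, and at 144 h 19 rose and 16 fell, against 24.2% and 28.3%. The counts per list below stand beside the same background, and nothing particular to these lists is read from them. The 58 genes had medians of -0.014 and -0.015 on the log2 scale, beside -0.0045 and -0.018 over all genes tested. The count of 11 at 24 h was 7 without the first exposed library of that time, and 6 without the second exposed or the third untreated one.

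Heme and hemoglobin handling held the largest rise. At 24 h, 3 of its 9 genes rose and 2 fell, and at 144 h 5 rose and none fell. HMOX1, heme oxygenase, which frees iron from heme, rose from 97.2 ± 3.34 to 283 ± 10.4 FPKM at 24 h (limma log2 fold change 1.54, adjusted p = 3.63e-11) and from 72.5 ± 3.11 to 320.0 ± 14.0 FPKM at 144 h (2.14, limma adjusted p = 3.78e-13). SLC48A1, a heme transporter, rose from 8.10 ± 0.226 to 10.6 ± 0.480 FPKM at 24 h (0.39, limma adjusted p = 5.15e-04) and from 4.40 ± 0.270 to 8.22 ± 0.237 FPKM at 144 h (0.89, limma adjusted p = 2.17e-08). Haptoglobin, HP, which binds free hemoglobin, fell at 24 h (25.4 ± 1.38 to 20.0 ± 0.954 FPKM, limma log2 fold change -0.34, adjusted p = 0.00531) and rose at 144 h (14.4 ± 1.31 to 30.5 ± 2.22 FPKM, 1.08, limma adjusted p = 2.54e-08).

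Of 6 genes tested for hepcidin and its control, 3 passed the test at 24 h, 2 of them higher, and 4 at 144 h, 1 of them higher. HAMP, which encodes hepcidin, the hormone that triggers the degradation of ferroportin, fell from 143 ± 11.3 to 32.4 ± 4.77 FPKM at 24 h (limma log2 fold change -2.15, adjusted p = 8.56e-09) and from 408 ± 16.2 to 69.6 ± 8.23 FPKM at 144 h (-2.56, limma adjusted p = 2.15e-10). BMP6, a ligand that induces hepcidin, rose from 0.287 ± 0.0306 to 0.470 ± 0.0889 FPKM at 24 h (0.55, limma adjusted p = 0.0187) and from 1.34 ± 0.0751 to 3.79 ± 0.189 FPKM at 144 h (1.44, limma adjusted p = 1.18e-06). With a pseudocount of 1 in place of 0.1 the value of BMP6 at 24 h was 0.19, and its call was lost then, with only the compared groups in the model, and in 4 of the 12 settings that left out 1 library. TMPRSS6, a protease that restrains hepcidin, fell at 144 h (5.13 ± 0.131 to 3.87 ± 0.156 FPKM, limma log2 fold change -0.40, adjusted p = 2.35e-04).

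Of 8 genes tested for iron uptake and ferrous iron transport, none passed the test at 24 h with limma, where 1 had an unadjusted p below 0.05, and 5 rose and 2 fell at 144 h. MELTF, melanotransferrin, a surface protein that binds iron, rose from 3.03 ± 0.306 to 4.90 ± 0.337 FPKM (limma log2 fold change 0.68, adjusted p = 3e-04). LCN2, lipocalin 2, which binds bacterial iron carriers, rose from 54.4 ± 2.31 to 87.1 ± 7.40 FPKM (0.68, limma adjusted p = 4.26e-06). CP, ceruloplasmin, the ferroxidase of plasma, rose from 198 ± 8.30 to 253 ± 8.56 FPKM (0.36, limma adjusted p = 2.87e-06).

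Of 7 genes tested for the control of iron regulatory proteins and for other mRNAs known to carry the hairpin, 2 passed the test at 24 h, 1 in each direction, and 4 at 144 h, 2 in each direction. FBXL5, the ubiquitin ligase subunit that marks IRP2 for degradation, fell at 144 h from 4.95 ± 0.342 to 4.24 ± 0.147 FPKM (limma log2 fold change -0.22, adjusted p = 0.0102). EPAS1, which encodes a hypoxia-inducible factor, fell at 24 h from 60.8 ± 1.11 to 55.8 ± 0.146 FPKM (-0.12, limma adjusted p = 0.0266) and rose at 144 h from 82.8 ± 1.92 to 110 ± 4.39 FPKM (0.41, limma adjusted p = 1.99e-07). CDC42BPA, a kinase whose mRNA carries the hairpin in its 3′ UTR, rose at 24 h (2.78 ± 0.0493 to 3.26 ± 0.0643 FPKM, 0.22, limma adjusted p = 0.0422) and at 144 h (2.75 ± 0.0854 to 4.06 ± 0.208 FPKM, 0.54, limma adjusted p = 9.55e-06). The calls at 24 h were lost in 9 of the 12 settings that left out 1 library for CDC42BPA and in 5 for EPAS1, also in both cases under some other settings (such as a replicate block for CDC42BPA and quantile normalization for EPAS1), and that of FBXL5 at 144 h without untreated replicate 3 (-0.16).

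Ferritin loading and ferritin autophagy held 10 tested genes, none of which passed the test at 24 h with limma, where 2 had an unadjusted p below 0.05. At 144 h 3 rose and 2 fell. MAP1LC3B, a protein of the autophagosome membrane, rose from 106 ± 1.68 to 160.1 ± 3.80 FPKM (limma log2 fold change 0.59, adjusted p = 4.94e-09) and its relative GABARAPL2 from 67.2 ± 2.93 to 78.5 ± 2.36 FPKM (0.22, limma adjusted p = 0.00108). PCBP2, a chaperone that delivers iron, fell from 329 ± 5.85 to 279 ± 2.17 FPKM (-0.23, limma adjusted p = 5.08e-06). Of 18 genes for iron-sulfur clusters and mitochondrial iron, 1 passed the test at 24 h, where it was lower, and 10 at 144 h, 3 of them higher. SLC25A37, mitoferrin 1, which carries iron into mitochondria, rose at 144 h from 6.96 ± 0.795 to 9.78 ± 0.374 FPKM (limma log2 fold change 0.49, adjusted p = 9.31e-05) and NFS1, the cysteine desulfurase, from 15.7 ± 0.340 to 19.3 ± 0.681 FPKM (0.30, limma adjusted p = 1.36e-05). HSCB, a co-chaperone of cluster transfer, fell from 12.6 ± 1.32 to 9.65 ± 0.160 FPKM (-0.37, limma adjusted p = 0.00838).

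**Figure D4:**
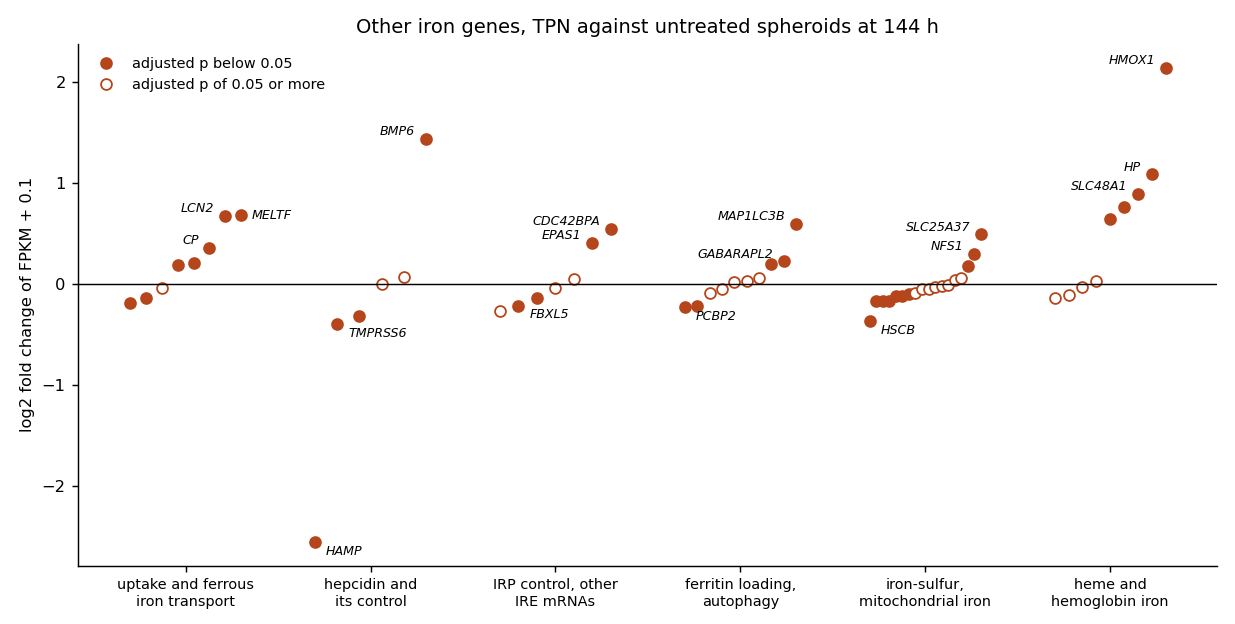
Log2 fold change of FPKM + 0.1 at 144 h, exposed over untreated spheroids (y axis), of the 58 other iron genes tested, by list (x axis) and in order of size within a list, with filled points for an adjusted p below 0.05 and open points for others. HMOX1 at 2.14 and BMP6 at 1.44 are the highest points and HAMP at -2.56 is the lowest, and the iron-sulfur genes lie from -0.37 to 0.49.

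The genes with the most similar pattern were found as those with the smallest root mean square difference from each iron gene over the 12 libraries, in log2(FPKM + 0.1) centred per gene. FTH1 and SLC40A1 were among each other's nearest 2, at 0.099. FTH1 was nearest to TNFRSF21 (0.085) and SLC40A1 to FOSL1 (0.072). FTL was nearest to the heme transporter SLC48A1 (0.058) and then to GPX2 (0.078). These distances are set beside a spread of the iron genes themselves of 0.50 for FTH1, 0.49 for FTL and 0.48 for SLC40A1. TF was nearest to PTPRM (0.049) and SERPIND1 (0.063), TFRC to KDM5B (0.037) and FOXO3 (0.045), and NCOA4 to EPHB4 (0.039) and AKAP1 (0.042). ACO1 was nearest to TMEM203 (0.035) and NUP50 (0.039), and IREB2, whose own spread was 0.061, to DIDO1 (0.033) and OLA1 (0.034).

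Cell types other than the cultured lines were also examined by their markers. Of 5 macrophage markers 4 were in the expression table, and CD68, a lysosomal protein, was the one with at least 1 FPKM. CD68 rose from 46.7 to 52.6 FPKM at 24 h and from 47.8 to 63.7 FPKM at 144 h (limma adjusted p = 0.00373 and 1.84e-07). The summed level of 4 endothelial markers was at most 0.53 FPKM, and that of the erythroid marker in the table at most 0.66 FPKM, so the defining markers of these types were near 0. At 144 h 4 of 7 stellate markers tested fell with exposure and none rose, against 28.3% and 24.2% of all genes tested. Of these 4, COL3A1 (0.503 to 0.127 FPKM) and COL1A2 (0.273 to 0.09 FPKM) were at low levels, where the precision of FPKM is unknown. The part of the stellate markers in the results for the iron genes was not tested. On chromosome 11 the gene BEST1 overlaps FTH1 by 1231 bases, with at most 1.88 FPKM, and on chromosome 3 SRPRB overlaps TF by 12619 bases, with 22.4 to 28.6 FPKM.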

How the data were processed

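Libraries were made from spheroids pooled per sample, with 3 libraries in each of 4 groups, described by the authors as independent experiments. The authors used DNBSEQ sequencing, removed poor reads with SOAPnuke, mapped the rest with HISAT2 2.0.4 to GRCh38 and with Bowtie2 2.2.5 to reference transcripts, and calculated with RSEM the FPKM values that were deposited, rounded to 2 decimals. FPKM of a gene is therefore relative to the other genes of its library, and read counts were not used here. The strand listed for TFRC and NCOA4 in the expression table is plus, and minus in RefSeq. Broken annotation lines (20) were skipped.

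With limma 3.58.1 (R 4.3.3, lmFit with a mean per group, eBayes with trend), log2(FPKM + 0.1) was compared in genes with a mean of at least 0.5 FPKM, and p-values were adjusted over the 11713 genes by the Benjamini-Hochberg method. The added 0.1 makes fold changes of genes with low values smaller. Ratios were compared with exact permutation tests in scipy 1.17.1. The procedure was tested on simulated data. Groups follow the labels. The iron genes, the lists and the tests were chosen with earlier results of these data known. From each list, up to 3 genes with the largest log2 fold change at 144 h among those that passed the test at either time are named, and for each iron gene the 2 nearest genes. Settings tried as alternatives were a pseudocount of 1 or 0.01, no filter or one at a mean of 5 FPKM, other scalings (same total, also without the 10 most abundant genes, median ratio, quantile), and changes to the trend, the groups in the model and the replicate block, and each library was left out in turn. Same-numbered untreated and exposed libraries had correlations of deviations from -0.083 to 0.10, with 1 of 6 pairs over 0.1. Between the times, same-numbered libraries had 0.094, 0.020 and 0.15 in untreated and 0.086, -0.0070 and 0.14 in exposed spheroids. Numbers were not taken to pair libraries, although pairing between the times is not excluded. With a replicate block the same number of iron genes passed the test in limma in both comparisons of times. Tables and figures were made in Python 3.11.15 (pandas 2.3.3, numpy 2.4.6, matplotlib 3.10.9).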

Additional observations from a re-analysis of the deposited data

Results flagged for a closer look

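The effect of exposure, as a log2 fold change, differed between 144 h and 24 h by a test of the difference in limma for 5 of the 8 iron genes. It was higher at 144 h for 19 and lower for 10 of the 58 other iron genes tested, against 14.1% and 16.3% of all genes tested. Of the 18 of them that are named, 15 differed, but they were named for a large log2 fold change at 144 h, which favours such a difference. The iron genes were FTH1 (0.79), FTL (0.54), SLC40A1 (0.83), TF (-0.40) and NCOA4 (-0.34). None of these 5 changed its call when 1 library was left out. Among genes of heme and hemoglobin the differences were 1.43 for HP, 0.60 for HMOX1 and 0.50 for SLC48A1. For HP the direction of the effect itself turned, from lower at 24 h to higher at 144 h, and EPAS1 turned in the same way, with a difference of 0.53. In iron uptake LCN2 had 0.74, MELTF 0.73 and CP 0.43. In the control of hepcidin BMP6 had 0.89 and HAMP -0.41. The other differences were 0.57 for MAP1LC3B, 0.27 for GABARAPL2, -0.19 for PCBP2, 0.32 for CDC42BPA, 0.32 for SLC25A37 and 0.31 for NFS1. The differences for HAMP and SLC25A37 each lost their call in 6 of the 12 settings that left out 1 library.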

How the results depend on the processing

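Of 912 values of the 8 iron genes under alternative settings, 877 kept their direction and their side of the threshold, and 11 changed direction. The reversals concern small values. SLC40A1 between the untreated times was 0.11 after scaling by median ratios and 0.091 after quantile normalization, NCOA4 in the same comparison 0.091 and 0.047, and IREB2 between the exposed times 0.083 and 0.062. IREB2 at 24 h was -0.0083 with libraries scaled to the same total, -0.0010 when the 10 most abundant genes were removed before that scaling, and from -0.015 to 0.023 when 1 library was left out. Quantile normalization gives the top gene of each library the same value, so FTL had 0 between groups in which it ranked first, and FTH1 had -0.45 between the untreated and 0.36 between the exposed times. ACO1 at 144 h passed the test in 4 of 23 settings, and IREB2 at 144 h in 21 of 23. Of the other iron genes, 7 passed the test at 24 h when only the compared groups were fitted, and 6 to 11 when 1 library was left out. With a replicate block, 8 of the 8 iron genes passed the test at 144 h against 7 without it (6214 against 6144 of all genes), and 5 with and without it at 24 h (1209 against 1230), and same-numbered libraries did not always correlate best. FPKM carry no count, so precision at low levels such as that of BMP6 is unknown.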

Other observations

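Exposed spheroids at 144 h differ from untreated spheroids at 24 h in exposure and in time, so the following values belong to no comparison of the design and were not tested. In the deposited values the mean level of FTL in the former was 0.996 times that in the latter, and that of TF 1.02 times. The median gene tested was 0.18 lower on the log2 scale at 144 h than at 24 h in untreated spheroids. The values here are not set beside that shift, and relative to the median gene they would be higher. The fall of FTL that untreated spheroids showed over this interval was not seen between these groups. For the rise of TF in untreated spheroids this depends on the scaling. FTH1 was 2.15 times and SLC40A1 2.19 times as high, TFRC 1.65 times, and NCOA4 and ACO1 were 0.677 and 0.667 times as high.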
